A study of Mus musculus with 2 samples.

Results

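The genes described here are the solute carriers of families SLC5, SLC6, SLC13, SLC17, SLC22 and SLC34, membrane proteins that move sugars, amino acids, organic ions, sulphate and phosphate, most of them with sodium. Members were chosen by symbol alone: of 55488 gene rows, 72 carried a symbol of these families, and the 68 with at least 10 UMIs over both libraries are the members. The other 4, Slc6a5, Slc6a14, Slc17a6 and Slc22a16, had 1 to 9 UMIs. A UMI (unique molecular identifier) marks 1 captured RNA molecule.

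Kidneys taken at birth (postnatal day 0) from mice had been profiled by single-cell RNA-seq, with a droplet method that reads the 3′ end of transcripts. The study has 2 libraries, called Flcn WT and Flcn KO in the labels. Both came from mice carrying Six2Cre, a recombinase made in nephron progenitors and passed on to the nephron epithelium. Per the design text, the WT library was Six2Cre; Flcn flox/+, so 1 floxed Flcn allele could be deleted there too, and the KO library was Six2Cre; Flcn flox/flox. Flcn encodes folliculin, a lysosomal regulator that restrains the transcription factors TFEB and TFE3. Collecting duct, stroma, vessels and immune cells lie outside the Six2 lineage. The number and sex of the animals behind each library are not stated, and the labels call the tissue embryonic kidney.

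The proximal tubule takes back nearly all filtered glucose, amino acids and phosphate. Apical carriers such as NaPi-IIa (Slc34a1), SGLT2 (Slc5a2) and B0AT3 (Slc6a18) draw solutes from the filtrate, while basolateral carriers such as OAT1 (Slc22a6) and OAT3 (Slc22a8) draw organic anions, drugs among them, from the blood for secretion. HNF4 factors are known regulators of proximal tubule transport genes.

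Promoters were read for members from RefSeq (GRCm38.p6), as 250 bases before the start, and 52 of the 68 members had at least 1 entry. Shown are 4 members with values below whose window holds AAAGTCC, an HNF4 core, or CACGTG, an E-box that TFEB and TFE3 can bind, searched on both strands. Capitals mark these motifs, the HNF4 core written as GGACTTT where it lies on the other strand. Slc34a1 lies at chr13:55399398-55399647 (plus strand), Slc22a22, an organic anion carrier, at chr15:57265162-57265411 (minus), Slc5a1 at chr5:33103969-33104218 (plus) and Slc13a3 at chr2:165473198-165473447 (minus).
Slc34a1: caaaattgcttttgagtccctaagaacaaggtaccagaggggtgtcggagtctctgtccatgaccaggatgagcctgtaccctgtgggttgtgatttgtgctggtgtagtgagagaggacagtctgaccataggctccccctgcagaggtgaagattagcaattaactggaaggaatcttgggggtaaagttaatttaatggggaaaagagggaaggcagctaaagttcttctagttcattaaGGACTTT
Slc22a22: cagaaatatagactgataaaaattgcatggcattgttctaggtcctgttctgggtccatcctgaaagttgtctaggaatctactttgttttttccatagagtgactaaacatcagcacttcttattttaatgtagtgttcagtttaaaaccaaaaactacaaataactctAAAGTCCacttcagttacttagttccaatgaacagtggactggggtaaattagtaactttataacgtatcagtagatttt
Slc5a1: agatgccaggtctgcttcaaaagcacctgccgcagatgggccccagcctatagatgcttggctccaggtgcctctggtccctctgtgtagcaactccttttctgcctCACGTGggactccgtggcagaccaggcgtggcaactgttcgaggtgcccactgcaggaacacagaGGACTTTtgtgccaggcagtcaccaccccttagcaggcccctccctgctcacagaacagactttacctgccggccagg
Slc13a3: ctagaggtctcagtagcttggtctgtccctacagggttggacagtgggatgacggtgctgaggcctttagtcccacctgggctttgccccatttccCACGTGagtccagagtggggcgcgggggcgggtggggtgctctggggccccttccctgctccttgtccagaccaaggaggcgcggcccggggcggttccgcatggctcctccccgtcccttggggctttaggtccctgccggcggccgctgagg
The HNF4 core stood at 7 bases before the start in Slc34a1, 80 in Slc22a22 and 78 in Slc5a1. The E-box stood at 143 bases in Slc5a1 and 154 in Slc13a3. Over all members AAAGTCC was in 4 of 67 promoters (5.97%) against 3.58% of 32851 promoters of all genes, and CACGTG in 7.46% against 6.02%. The other member with the HNF4 core was Slc22a3, and the other members with the E-box were Slc22a4, Slc6a16 and Slc6a3. These matches describe letters in a window, not binding.

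The WT library gave 4000 cells of 5572 barcodes and the KO library 4798 of 5991, at median depths of 20960 and 18458 UMIs. Kept cells of both libraries shared 1 barcode. Cells fell into 12 classes named from markers, and 379 WT and 482 KO cells stayed unnamed. Each group is 1 library, so differences lack a replicate check and no test was possible. All 95% intervals cover counting error only. Levels are in CPM, the usual scaling to library size, taken over the nuclear-encoded UMIs of a class, and ratios are KO over WT. Flcn itself had 1546 WT and 1416 KO UMIs, with 498 and 286 in proximal tubule (ratio 0.612, 0.527 to 0.709). In no other class of the Six2 lineage did the interval lie below 1. Podocytes were at 1.74 (1.33 to 2.27). Nephron progenitors (1.12), early nephron cells (0.873), loop of Henle (1.38) and distal tubule (0.838) had intervals that included 1. Those of early nephron cells (0.659 to 1.15) and distal tubule (0.506 to 1.36, on 48 and 28 UMIs) overlapped the proximal tubule interval. Whether these 2 classes share the lower level is thus not settled. Since the labels do not say which exons are floxed, 3′ counts do not check the deletion.

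Most members belonged to the proximal tubule. Of the 63 members with at least 50 UMIs over the named classes, 40 had their highest CPM there in WT cells and 38 in KO cells, 36 of them in both. Loop of Henle held the highest level of 7 and 5 members. Members together made up 6951 CPM in WT and 4263 CPM in KO proximal tubule cells, against 1127 and 1008 CPM in loop of Henle and 269 and 273 CPM in nephron progenitors. Slc34a1 alone gave 29.4% of the members' proximal tubule UMIs in WT and 25.1% in KO.

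**Figure D1:**
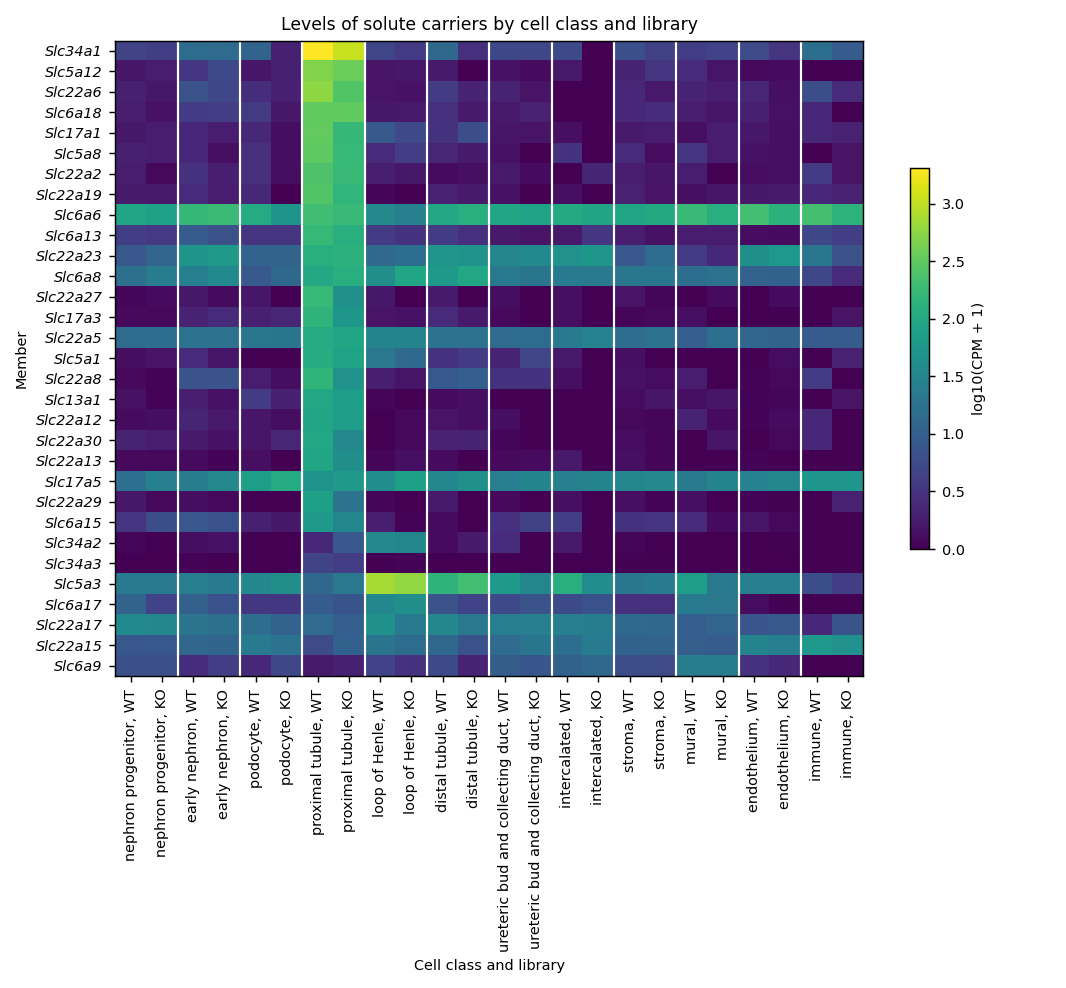
Levels of 31 members, as log10(CPM + 1), in each of 12 cell classes (columns in pairs, WT then KO); each cell of the map is 1 sum over the cells of a class in 1 library. Most members stand out in the proximal tubule columns, while Slc5a3 is brightest in loop of Henle (725 CPM in WT and 592 CPM in KO), and Slc6a6 and Slc17a5 have signal in every class.

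Counts of a carrier in cells that should lack it set a floor under these maps. Whether they come from free RNA was not tested. A UMI of Slc34a1 was found in 94.8% of WT and 92.2% of KO proximal tubule cells, and in 16.6% and 6.52% of endothelial cells, which should lack it. Median depths were 41890.5 and 47718 UMIs in proximal tubule, and 22143 and 26364.5 in endothelium. Thinned to 3000 UMIs per cell, which left out 4 WT and 2 KO proximal tubule cells and 2 and 4 endothelial cells, the shares were 84.2% and 77.0% against 3.74% and 0.658%. In CPM, Slc34a1 was at 2042 and 1072 in proximal tubule, 4.73 and 2.15 in endothelium, 10.7 and 0.932 in podocytes, 11.6 and 1.82 in distal tubule, and 5.34 and 3.56 in stroma. Levels of this size outside proximal tubule are read here as background, and so are their differences.

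The main comparison asked how the carriers of proximal tubule cells differ between the KO and the WT library. Most organic anion carriers and the phosphate carrier Slc34a1 were lower in the KO library, Slc34a1 at a ratio of 0.525, Slc22a6 at 0.471 and Slc22a8 at 0.316, while the neutral amino acid carrier Slc6a18 was at 1.02 and the lysosomal carrier Slc17a5 at 1.25. Of 54 members with at least 20 UMIs in the class, 17 were at least 2-fold lower in KO (31.5%), against 4.89% of all 16982 genes tested the same way. Another 3 were at least 2-fold higher (5.56%), against 5.58% of all genes. In all, 43 members lay below 1, 39 with an interval below 1, and 6 had an interval above 1. The median log2 ratio was -0.59, beside -0.003 over all genes. The summed level had a ratio of 0.613 (0.608 to 0.618).

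These totals mix different cells. The WT class was made mostly of clusters 17 (193 cells), 18 (153) and 22 (131), and the KO class of clusters 26 (178 cells), 18 (155) and 22 (56), with 21 KO cells in cluster 17 and 7 WT cells in cluster 26. With clusters 17, 18 and 22 weighted equally, an alternative chosen after seeing the data, 7 of 52 members were at least 2-fold lower, 1 was at least 2-fold higher, and the ratio of the summed level was 0.846. The share of all genes under equal weights was not taken, so these 2 counts have no background beside them. Values over all cells are therefore given below with cluster or equal weights values for the members the results turn on.

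**Figure D2:**
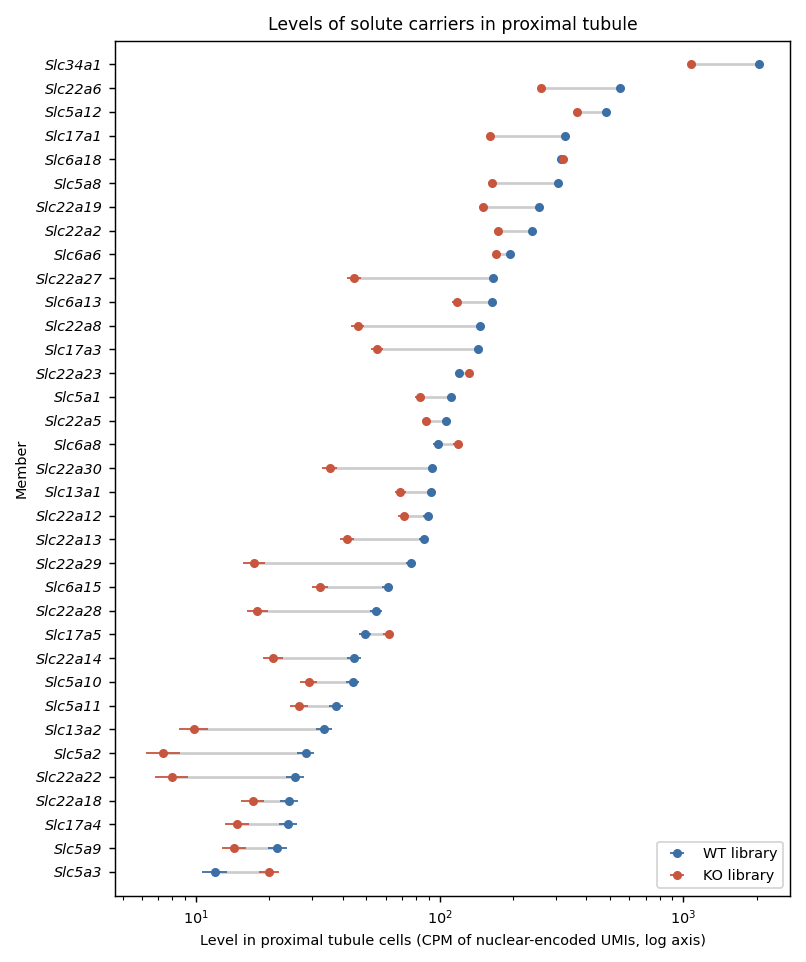
Levels (CPM, log axis) of 35 members with at least 500 UMIs in proximal tubule, with blue points for the WT library and red for the KO library; bars are exact Poisson 95% intervals and cover counting error only. Red points lie left of blue for most members, by the widest gaps for SLC22 organic anion carriers, Slc13a2 and Slc5a2, and right of blue for Slc6a18, Slc22a23, Slc6a8, Slc17a5 and Slc5a3.

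The sodium phosphate cotransporters are 3 genes. Slc34a1 (ENSMUSG00000021490, chromosome 13, 55398187 to 55415592, plus strand, GRCm38) had proximal tubule UMIs of 45894 in WT and 22613 in KO, or 2042 (2023 to 2060) and 1072 (1058 to 1086) CPM. Its ratio was 0.525 (0.517 to 0.533) over all cells. Within clusters it was 0.851 (0.814 to 0.888) in cluster 17, 0.788 (0.762 to 0.813) in 18, 0.642 (0.615 to 0.671) in 22 and 0.556 (0.519 to 0.595) in 26, and 0.788 with equal weights. The lower level was thus seen in each cluster, by less than over all cells. Slc34a2, NaPi-IIb, the intestinal and lung isoform, had 32 WT and 148 KO UMIs (ratio 4.93, 3.35 to 7.47), of which 127 KO UMIs and 0 WT UMIs lay in cluster 26. With equal weights its ratio was 1.36. Slc34a3, NaPi-IIc, had 84 and 63 UMIs, and its interval included 1 (0.799, 0.567 to 1.12).

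Organic anion carriers had the lowest summed ratio of the role groups, 0.448 (0.439 to 0.456). Of 13 members 12 had enough UMIs. Over all cells 10 of them were at least 2-fold lower, against 4.89% of all genes, and none was higher. Slc22a6, OAT1, had 12396 WT and 5480 KO UMIs, or 551 (542 to 561) and 259.7 (253 to 267) CPM (ratio 0.471, 0.456 to 0.486). It was at 0.606, 0.610 and 0.540 in clusters 17, 18 and 22. Slc22a8, OAT3, had 3278 and 971 UMIs, or 146 and 46.0 CPM (ratio 0.316, 0.294 to 0.339). Its ratios were uneven between clusters, at 0.761, 0.564 and 0.216, and the equal weights ratio was 0.622. Slc22a12, the urate carrier URAT1, was at 0.799 (0.747 to 0.854) over all cells, but at 0.463 in cluster 17 and 1.56 in cluster 22. Slc22a13, which exchanges urate and nicotinate, was at 0.483 over all cells, at 0.222 in cluster 17 and 0.727 in cluster 22. Slc22a22 had 572 and 168 UMIs (ratio 0.313), was at 0.812, 0.449 and 0.418 in clusters 17, 18 and 22, and at 0.585 with equal weights. Slc22a7, OAT2, had 58 WT and 7 KO UMIs (ratio 0.129, 0.0495 to 0.282).

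The rodent-specific carriers Slc22a19, Slc22a26, Slc22a27, Slc22a28, Slc22a29 and Slc22a30 stand beside Slc22a8 and Slc22a6 on chromosome 19 between 7673061 and 8628299 (GRCm38). Over all cells all 8 were lower in KO, 7 of them at least 2-fold (4.89% of all genes), with ratios from 0.227 (Slc22a29) to 0.591 (Slc22a19). With equal weights Slc22a27 and Slc22a29 stayed at least 2-fold lower, at 0.413 and 0.467. Slc22a28, Slc22a6, Slc22a8, Slc22a30 and Slc22a19 then lay between 0.582 and 0.808. Slc22a26 was at 0.176 (0.102 to 0.287) in cluster 18. It was at 0.369 in cluster 17, on 30 WT and 1 KO UMIs, and 0.902 in cluster 22, both with intervals that included 1. Slc22a27 had 3730 WT and 941 KO UMIs, or 166 and 44.6 CPM (ratio 0.269 with an upper bound of 0.289). It was at 0.371, 0.231 and 0.496 in clusters 17, 18 and 22. Slc22a29 had 1708 and 364 UMIs, and was at 0.518, 0.247 and 0.479 there. How reads were split between these related genes was not checked, so their separate counts are uncertain. The 4 apical SLC17 genes, neighbours on chromosome 13 (23806993 to 23915009), were also all lower, Slc17a1 at 0.492 (7360 WT and 3401 KO UMIs), Slc17a3 at 0.387 (3222 and 1171), Slc17a4 at 0.619 and Slc17a2 at 0.629. They carry urate and phosphate, and their summed ratio was 0.472 (0.456 to 0.488). With equal weights Slc17a1 was at 0.682, Slc17a3 at 0.517 and Slc17a4 at 1.10.

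Carriers of sulphate and di- or tricarboxylates had a summed ratio of 0.586. Slc13a2, NaDC1, which takes back citrate, had 754 WT and 206 KO UMIs (33.5 and 9.76 CPM, ratio 0.291, 0.248 to 0.340). It was at least 2-fold lower in clusters 17, 18 and 22 alike, at 0.472, 0.218 and 0.476. Slc13a3, NaDC3, its basolateral relative, had 341 and 67 UMIs (ratio 0.209, 0.159 to 0.273) over all cells. Within clusters it was not 2-fold lower, at 0.519 (0.280 to 0.884) in 17, 0.892 in 18 and 0.782 in 22. In clusters 18 and 22 its intervals included 1. Slc13a1, the sulphate carrier NaS1, was at 0.748 (2074 and 1456 UMIs) over all cells and at 0.480 with equal weights. Slc13a4 counted as higher on 7 and 16 UMIs, with an interval that included 1.

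Among sugar carriers, Slc5a2, SGLT2, had 633 WT and 155 KO UMIs (28.2 and 7.35 CPM, ratio 0.261, 0.217 to 0.311). Its ratio was 0.360 in cluster 17, 0.545 in 18 and 0.248 in 26, and cluster 22 had under 20 of its UMIs. Over the processing settings tried the ratio over the class ran from 0.2375 to 0.708, and it stayed 2-fold in 10 of 11. Slc5a1, SGLT1, was at 0.747 over all cells, and at 0.434, 0.592 and 1.03 in clusters 17, 18 and 22. Slc5a9, Slc5a10 and Slc5a11 lay between 0.659 and 0.707 over all cells, and at 0.723, 0.618 and 0.928 with equal weights. Slc5a11 was at 1.15 and 1.12 in clusters 17 and 18, with intervals that included 1, and at 0.616 in 22. Slc5a3, the sodium myo-inositol cotransporter SMIT1, was at 1.67 (1.43 to 1.95) on 268 and 420 UMIs. It overlaps Mrps6 on the same strand, so its counts are uncertain.

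The lactate carriers Slc5a8 (SMCT1) and Slc5a12 (SMCT2) differed in direction between clusters. Slc5a12 had 10854 WT and 7748 KO UMIs and a ratio of 0.761 (0.739 to 0.783) over all cells. Yet it was at 2.31 (2.197 to 2.435) in cluster 17 and 1.32 (1.23 to 1.41) in 18, at 0.222 (0.206 to 0.239) in 26, and at 2.16 with equal weights, so its direction turned. Cluster 22 had under 20 of its UMIs. The equal weights value therefore rests mostly on cluster 17 (1002 and 2318 CPM), which held 21 KO cells. Slc5a8 had 6890 and 3451 UMIs (ratio 0.534), and went from 0.201 in cluster 17 through 0.460 in 18 and 0.850 in 22 to 1.78 in 26. For both carriers the cluster 26 value rests on 7 WT cells.

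Organic cation and carnitine carriers had a summed ratio of 0.785 (0.763 to 0.807), and 1 of 6 was at least 2-fold lower, Slc22a3, on 16 and 6 UMIs with an interval that included 1. Slc22a2 (OCT2) had 5362 WT and 3655 KO UMIs and was at 0.726, with 0.825 under equal weights. Slc22a5, the carnitine carrier OCTN2, was at 0.829 over all cells and 0.987 with equal weights. The ergothioneine carrier Slc22a4 was at 1.03 over all cells (193 and 187 UMIs), but 145 of its KO UMIs and 0 WT UMIs lay in cluster 26, and its ratio was 0.0878 (24 and 2 UMIs) in cluster 18 and 0.568 in cluster 22. Neutral amino acid carriers had a summed ratio of 0.923. Slc6a18, B0AT3, had 7055 WT and 6749 KO UMIs and an interval that included 1 (0.986 to 1.05). Slc6a19, B0AT1, had 320 and 175 UMIs (ratio 0.583), with intervals that included 1 in each cluster. Slc6a15 was at 0.528 (1377 and 682 UMIs), with 0.378, 0.518 and 0.659 in clusters 17, 18 and 22 and 0.574 with equal weights.

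Of the osmolyte and creatine carriers, the taurine carrier Slc6a6 was at 0.880 (4365 WT and 3606 KO UMIs) and Slc6a13, which carries GABA and betaine, at 0.715. With equal weights they were at 0.832 and 0.812, and in cluster 22 both had intervals that included 1. The creatine carrier Slc6a8 was at 1.21 (1.14 to 1.28) over all cells and 1.34 with equal weights. Its clusters differed, with 1.05 (0.832 to 1.30) in cluster 17, 1.26 (1.14 to 1.39) in 18, 1.86 (1.62 to 2.13) in 22 and 0.660 (0.520 to 0.850) in 26. In the SLC22 genes of other substrate, Slc22a23 was at 1.10 over all cells and above 1 in clusters 17, 18 and 22 (1.57, 1.29 and 1.75). Slc22a14 was at 0.466 over all cells, at 0.583, 0.392 and 0.756 in clusters 17, 18 and 22, and at 0.676 with equal weights. It overlaps Slc22a13 and other genes on the same strand, so the counts of both carriers are uncertain. Slc22a15 was at 2.10 (104 and 205 UMIs), with 117 of its KO UMIs in cluster 26 and a ratio of 1.10 under equal weights.

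**Figure D3:**
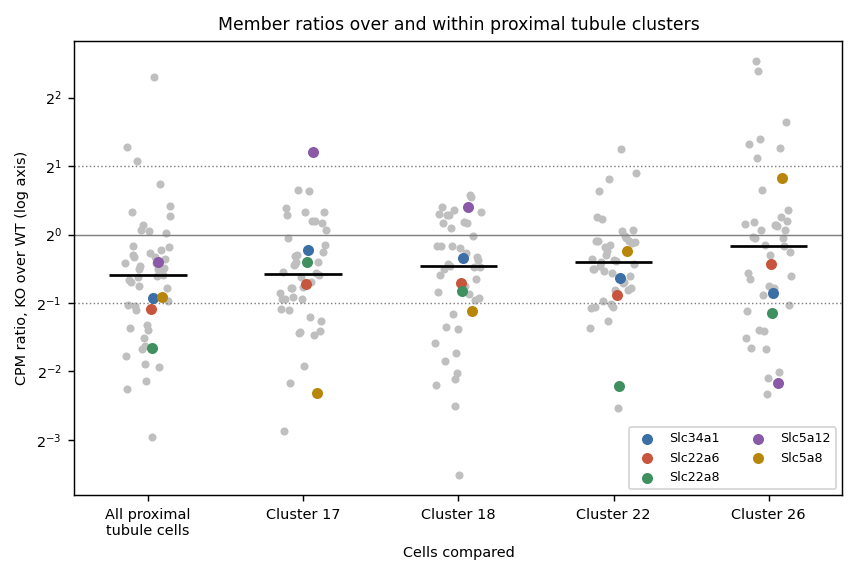
CPM ratios (KO over WT, log axis) of members with at least 20 UMIs and at least 1 in each library, over all proximal tubule cells and in clusters 17, 18, 22 and 26; each point is 1 gene and the black bar is the median of the points. Slc34a1 and Slc22a6 lie below 1 in every column, whereas Slc5a12 runs from 2.31 in cluster 17 to 0.222 in cluster 26 and Slc5a8 runs the other way.

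Of 45 members with at least 20 UMIs in each of clusters 17, 18 and 22, 27 were below 1 in all 3. The interval lay below 1 in all 3 for 14 of them, namely Slc34a1, Slc22a6, Slc22a8, Slc22a13, Slc22a19, Slc22a27, Slc22a29, Slc22a30, Slc17a1, Slc17a3, Slc13a1, Slc13a2, Slc5a8 and Slc6a15. It lay above 1 in all 3 for 1 member, Slc22a23. These counts over 3 clusters were not taken for all genes, so they have no background share beside them. Cluster 18, led by Grid1, Unc5cl and Hnf4g, held nearly equal numbers of cells of each library. There 12 of 48 members were at least 2-fold lower, against 4.18% of 14632 genes, and the summed ratio was 0.759 (0.745 to 0.772). In cluster 17, led by G6pc, Acmsd and Cyp24a1, 12 of 48 were lower (9.75% of genes), and in cluster 22, led by Serpina6, Slc7a13 and Kap, 8 of 47 (3.93%). Clusters also had their own carriers, and the cluster with the highest level was the same in both libraries for 42 of the 45.

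Other genes moved with these levels. The proximal tubule markers used to name the class summed to 15200 CPM in WT and 10490 CPM in KO, 10 of 13 below 1. Of 15 tubule injury genes 9 were at least 2-fold higher in KO and none was below 1, and their sum was 2001 and 3042 CPM. Cluster 26, which held 178 KO and 7 WT cells, was led by Havcr1, Kcnip4, Sprr1a and Krt20. In cluster 18 the injury sums were 1295 and 1279 CPM and the marker sums 7518 and 7940 CPM. In cluster 22 the injury sums were 1592 and 2107 CPM and the marker sums 14900 and 12700 CPM, and in cluster 17 they were 2810 and 2489 CPM and 22460 and 20330 CPM. Markers of other cell types also differed between WT and KO cells of the class. Of 12 endothelial markers 7 were at least 2-fold higher in KO (summed 23.0 and 34.7 CPM), while 4 of 7 distal tubule markers (85.6 and 52.7 CPM), 4 of 7 ureteric bud and collecting duct markers (17.1 and 11.7 CPM) and 2 of 3 erythroid markers (34.6 and 4.03 CPM) were at least 2-fold lower. Of 7 immune markers 3 were at least 2-fold higher, with sums of 62.3 and 61.6 CPM, and the 10 podocyte markers, 2 of them at least 2-fold lower, summed to 687 and 1035 CPM. Mitochondrial UMIs were 6.80% of WT and 6.01% of KO proximal tubule UMIs. The part of these differences in the carriers' levels was not tested.

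Genes that work beside the members were given by a list of 50 transport partners, of which 48 had enough UMIs. Only 2 were at least 2-fold lower, Slc16a4, a monocarboxylate carrier relative, at 0.260 and the cystine carrier subunit Slc7a13 at 0.313. Next came Slc16a9 (0.512), the sodium proton exchanger Slc9a3 (0.524) and Slco4c1 (0.547). At least 2-fold higher were Abcb1a, a drug efflux pump (4.26, on 16 and 64 UMIs), the phosphate carrier Slc20a1 (3.11), the glucose carrier Slc2a1 (2.68) and the efflux pump Abcc4 (2.17), followed by Slc16a1 (1.53). The median log2 ratio of the list was -0.18. Both 2-fold counts are to be read against the 4.89% and 5.58% of all genes.

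Outside the proximal tubule the lysosomal sialic acid carrier sialin, Slc17a5, and the creatine carrier Slc6a8 were higher in KO in each class of the Six2 lineage, though not in each cluster of the proximal tubule. Slc17a5 had 292 WT and 406 KO UMIs in nephron progenitors (ratio 1.72, 1.48 to 2.01), 388 and 401 in early nephron cells (1.44, 1.25 to 1.66) and 357 and 350 in podocytes (1.60, 1.38 to 1.86). It had 1109 and 1301 UMIs in proximal tubule (1.25, 1.15 to 1.36; equal weights 1.24), 328 and 849 in loop of Henle (1.83, 1.61 to 2.09) and 126 and 123 in distal tubule (1.40, 1.09 to 1.81). Of the proximal tubule clusters only cluster 18 had an interval above 1 for it (1.32, 1.13 to 1.55), beside 0.978 to 1.22 in the other 3 clusters. Outside that lineage its ratios lay between 0.966 in immune cells and 1.30 in mural cells, and of these only endothelium had an interval above 1 (1.19, 1.03 to 1.37). The difference between the lineage and the other classes was not tested.

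Slc6a8 was at 2.13 (1.88 to 2.41) in loop of Henle on 341 and 1024 UMIs, 1.49 in nephron progenitors, 1.48 in early nephron cells and 1.62 in distal tubule. In collecting duct, stroma and endothelium it was at 0.891, 0.971 and 0.972, each with an interval that included 1. Over the processing settings tried its ratio in progenitors ran from 1.06 to 1.54 and in loop of Henle from 1.94 to 2.27. WT and KO loop of Henle cells clustered largely apart at a finer Leiden resolution, as given below, which bears on Slc17a5 and Slc6a8 there.

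**Figure D4:**
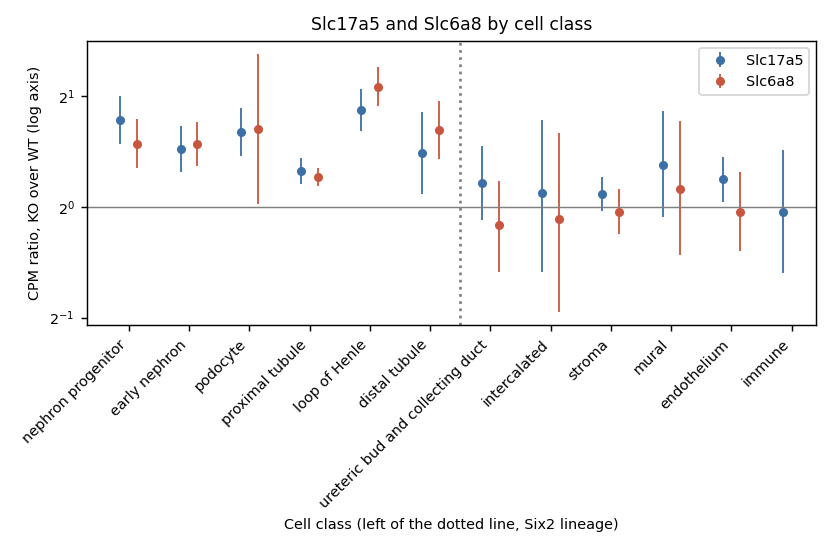
CPM ratios (KO over WT, log axis) of Slc17a5 in blue and Slc6a8 in red in each class with at least 50 UMIs; bars are exact 95% intervals and cover counting error only. Every interval left of the dotted line, in the Six2 lineage, lies above 1, and to its right most intervals include 1.

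In loop of Henle cells 25 members had enough UMIs, 3 at least 2-fold lower (8.09% of all genes) and 4 at least 2-fold higher (5.18% of all genes). At Leiden resolution 2 these cells divided largely by library. A cluster of 0 WT and 174 KO cells stood beside another of 145 WT and 28 KO cells. Ratios in this class therefore compare cells that cluster apart, and no ratio within these clusters was taken. Slc5a3 reached its highest level there, with 5839 WT and 6738 KO UMIs, or 725 and 592 CPM (ratio 0.817, 0.788 to 0.846). Over the processing settings tried its ratio ran from 0.805 to 1.07. Slc22a17, the lipocalin receptor, was at 0.511 (356 and 257 UMIs) and Slc6a17 at 1.24. Slc34a2 had most of its UMIs here, 286 and 361 (ratio 0.893, 0.763 to 1.05). The 3 lower members, named after their values were seen because they are few, were the ergothioneine carrier Slc22a4 (144 and 17 UMIs, ratio 0.0836, 0.0474 to 0.139), the betaine carrier Slc6a12 (139 and 35, 0.178, 0.119 to 0.260) and the proline carrier Slc6a7 (27 and 9).

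In the other classes the counts were small, and some rest on carriers at the level read as background. In distal tubule 3 of 18 members were at least 2-fold lower (16.7%, against 4.9% of all genes) and 3 higher (5.41%), and Slc5a3 was at 1.43 (565 and 562 UMIs). In podocytes 3 of 16 were lower (18.8%, against 3.77%) and 2 higher (4.04%). The taurine carrier Slc6a6 had 561 WT and 164 KO UMIs there (ratio 0.477, 0.398 to 0.569), but was at 1.03 at Leiden resolution 0.5. It was also lower in endothelium (2232 and 2275 UMIs, ratio 0.639, 0.602 to 0.677), where 3 of 23 members were at least 2-fold lower (13.04%, against 1.59%) and 1 higher (2.35%), and in mural cells (0.713). Slc5a3 was lower in mural cells (186 and 78 UMIs, ratio 0.291, 0.220 to 0.380). Over the processing settings tried that ratio ran from 0.241 to 0.784, and it stayed 2-fold in 7 of 10. In mural cells 2 of 14 members were at least 2-fold lower (3.15%) and 0 higher (2.53%). Slc5a3 in ureteric bud and collecting duct was at 0.529 (527 and 124 UMIs), and of 21 members 0 were at least 2-fold lower (2.69%) and 1 higher (1.86%). In nephron progenitors 3 of 32 members were lower (3.31%) and 1 higher (2.32%), in early nephron cells 4 of 39 were lower (10.3%, against 2.62%) and 0 higher (2.6%), and in stroma 3 of 35 were lower (8.57%, against 1.4%) and 1 higher (2.79%). Slc34a1, read as background outside proximal tubule, was 1 of the lower members in distal tubule, podocytes and endothelium (ratios 0.156, 0.0874 and 0.455). The other 2 in endothelium, Slc5a11 and Slc22a6, and the 3 in stroma, Slc5a8, Slc22a6 and Slc22a19, had 94.6% to 98.5% of their UMIs in proximal tubule and lay at 1.03 to 1.46 CPM in WT cells of these classes. The same holds for Slc5a1, Slc5a8 and Slc22a2 among the 4 in early nephron cells (91.4% to 98.5%, at 1.38 to 1.95 CPM). In the 42 WT and 14 KO intercalated cells 2 of 12 were lower (3.62%) and 0 higher (3.23%), and in immune cells 1 of 7 was lower (3.79%) and 0 higher (4.23%).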

How the data were processed

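Droplet libraries with 3′ chemistry (kit v2) were made, per the labels' protocols. The submitters' processing notes name GRCm38, STAR 2.7.2a, bcl2fastq 2.20.0 and Cell Ranger. The last was 7.0.0 for WT and 7.1.0 for KO, per the file headers. The deposited values are raw UMI counts per gene and barcode. The sources used here do not give the annotation, intronic counting or use of strand.

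Barcodes with at least 1000 UMIs, 500 genes and at most 20% mitochondrial UMIs were kept (4187 WT, 5040 KO). Scrublet in scanpy 1.11.5 ranked doublets, its own threshold called 52 and 48, and the top scores up to the expected doublet rate were dropped (187 WT, 242 KO). Counts scaled to 10000 per cell, 2000 variable genes without the members, 40 components and 20 neighbours gave Leiden clusters at resolution 1, without integration. Names came from marker lists, with a score of at least 0.35 and a lead of 0.05. Clusters whose second list scored at least 0.8 were split once more at resolution 0.1. That split and its resolution, and the use of the glia and erythroid lists as checks that name no class, were settled after the clusters had been seen.

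UMIs were summed per class and library. Ratios carry exact conditional intervals, shares Clopper-Pearson intervals and CPM exact Poisson intervals. For log2 ratios 0.5 UMI was added to each sum. Members with at least 20 UMIs in a class were counted at a fold of 2. In proximal tubule members with at least 50 UMIs could be named. Elsewhere these were the 4 highest levels and the 3 highest and 3 lowest ratios among members with at least 50 UMIs and 20 CPM, besides Slc17a5 and the SLC34 genes. The members and all lists were chosen with earlier results of these data known. Interval code was tested on simulated data. Alternatives, with scaling factors from edgeR 4.0.16 and DESeq2 1.42.0, are given in the closing section. Protein sequences were not used here, and some results are not reported here.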

Additional observations from a re-analysis of the deposited data

Results flagged for a closer look

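A member is given here when its ratio was at least 2-fold lower in one class and at least 2-fold higher in another, on at least 20 UMIs in each. The difference between classes was not tested, and most of these values rest on few UMIs. Slc17a4 was at 0.344 in intercalated cells (39 WT and 4 KO UMIs) and 2.78 in distal tubule (31 and 60). Slc22a15 was at 0.4996 in distal tubule (46 and 16) and 2.10 in proximal tubule (104 and 205). Slc5a1 was at 0.348 in early nephron cells (24 and 6) and 3.37 in ureteric bud and collecting duct (10 and 15). Slc5a8 was at 0.253 in early nephron cells (22 and 4), 0.204 in stroma (24 and 8) and 2.005 in loop of Henle (12 and 34), beside 306.5 and 164 CPM in proximal tubule. With 98.3% of its UMIs in proximal tubule, Slc5a8 lay at 0.296 to 2.99 CPM in these other classes, levels of the size read as background. The Slc5a1 values in early nephron and collecting duct cells are as low, at 0.524 to 3.88 CPM. Slc6a9 was at 0.239 in distal tubule (18 and 3) and 3.03 in podocytes (7 and 13).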

How the results depend on the processing

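No paired analysis was possible because there is 1 library per group, which also leaves no replicate to leave out. In proximal tubule the count of members at least 2-fold lower ran from 14 to 21 over the filters, clusterings, scalings and UMI minimums tried, beside 17, and the median log2 ratio kept its sign. The count at least 2-fold higher, 3, was 0 without clusters held at 90% or more by 1 library and 6 with members of at least 1 UMI. The summed ratio, 0.613, was 0.682 without those clusters, 0.593 with at most 10% mitochondrial UMIs, 0.579 with at least 2000 UMIs and 1000 genes, 0.627 without doublet removal, 0.624 at Leiden resolution 0.5, 0.601 as a mean over cells and 0.603 after thinning. Single ratios were followed for only 19 that were 2-fold. In proximal tubule these were of members with at least 500 UMIs and of Slc34a2 and Slc22a15. In the other classes, without intercalated and immune cells, they were named highest and lowest ratios. Left out were other 2-fold ratios on fewer UMIs, among them those of Slc22a7, Slc22a26, Slc13a3, Slc22a3 and Slc13a4 in proximal tubule. Of 205 values of the 19 under the settings above, 204 kept their direction and 187 stayed 2-fold. The exception was Slc6a6 in podocytes, at 1.03 at Leiden resolution 0.5, and the cause was not tested.

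Alternatives chosen after seeing the data changed more. With 3 clusters weighted equally the lower count was 7, the higher count 1 and the summed ratio 0.846, with no share over all genes taken. The higher count was 1 in cluster 17, 0 in cluster 18 and 1 in cluster 22, the lower count was 8 in cluster 22, and the summed ratios were 0.942, 0.759 and 0.766. Of 75 values of the same proximal tubule members with a 2-fold ratio under these, 72 kept their direction and 38 stayed 2-fold. The other 3 rest on few UMIs and show no direction, with Slc34a2 at 0 in cluster 17 and 0.790 in cluster 18 on under 20 UMIs in each, and Slc22a15 at 0.583 in cluster 17 on 19 and 1 UMIs (interval 0.0140 to 3.67). TMM and median-of-ratios scaling moved log2 ratios in proximal tubule by 0.001 and 0.003. Depth limits members with few UMIs outside proximal tubule.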

Other observations

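Cluster 11 stayed unnamed (147 WT and 55 KO cells), because its highest marker score, 0.290 for proximal tubule, missed the minimum. It was led by Miox, Gsta2, Cela1 and Defb19, and its median depth was 2216 UMIs in WT and 2956 in KO cells. Members summed to 2001 CPM in WT and 1900 CPM in KO there (1175 and 443 UMIs). Slc34a1 was at 514 and 532 CPM and Slc22a6 at 327 and 206 CPM, and Slc5a12 at 30.7 and 163 CPM. These cells enter none of the proximal tubule values.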
